A study of Mus musculus with 19 samples.

Results

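The 32 genes described here encode the mitochondrial enzymes that burn fatty acids and pyruvate: 3 proteins of the carnitine shuttle, 10 enzymes of beta-oxidation, 3 of the electron transfer flavoprotein system, 3 subunits of pyruvate dehydrogenase, 12 enzymes of or beside the citrate cycle, and the coactivator gene Ppargc1a. They were chosen by name from a list, and each was found once among 24972 genes in the deposited table and passed the filter on low values that left 16625 genes for testing. They were followed across 19 RNA sequencing libraries from mouse plantaris tendon, a tendon of the hindlimb. Scx- mice (title of the study: targeted deletion of scleraxis, a transcription factor of tendon cells) received tamoxifen and a growth stimulus for 7 days (n = 4) or 14 days (n = 4), Scx+ mice received the same for 7 days (n = 4) or 14 days (n = 4), and the control group was Scx+ without tamoxifen or stimulus (n = 3). The labels name neither the alleles, the cells in which the deletion was driven, the kind of stimulus, nor separate animals, so each p-value measures the spread between samples, which may be technical. The same 3 control libraries serve in all 4 comparisons with the control. There the stimulus cannot be told apart from tamoxifen or, for Scx-, from genotype.

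Long-chain fatty acids enter mitochondria as carnitine esters and are shortened in repeated turns of beta-oxidation, each releasing acetyl-CoA, while the electron transfer flavoprotein carries electrons from the acyl-CoA dehydrogenases towards the respiratory chain. Pyruvate dehydrogenase makes acetyl-CoA from pyruvate, and the citrate cycle oxidises both. Skeletal muscle, heart and brown fat are rich in these enzymes, and the coactivator PGC-1 alpha, encoded by Ppargc1a, is known there as a regulator of their genes together with nuclear receptors such as the estrogen-related receptors and the PPARs.

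The promoters of members that moved together are shown because they are where such regulators could act. A RefSeq promoter window on GRCm38.p6, covering 250 bases before and 50 after a gene start, was at hand for 28 of the 32 genes. Hadha and Hadhb, which encode the alpha and beta subunits of the mitochondrial trifunctional protein, lie head to head on chromosome 5, with RefSeq starts at 30154980 (Hadha, minus strand) and 30155253 (Hadhb, plus strand), 273 bases apart. The Hadhb window (chr5:30155003-30155302, plus strand) is printed 5′ to 3′, with the 228 bases it shares with the Hadha window in capitals.
Hadhb: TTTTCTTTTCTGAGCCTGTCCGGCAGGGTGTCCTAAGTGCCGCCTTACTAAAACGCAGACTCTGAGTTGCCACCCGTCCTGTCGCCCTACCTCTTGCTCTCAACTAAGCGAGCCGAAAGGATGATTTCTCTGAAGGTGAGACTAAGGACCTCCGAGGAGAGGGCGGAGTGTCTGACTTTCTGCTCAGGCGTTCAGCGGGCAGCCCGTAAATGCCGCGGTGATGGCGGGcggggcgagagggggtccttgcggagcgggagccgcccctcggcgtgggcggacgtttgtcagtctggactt

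In the next 3 windows the capitals mark a motif, searched as fixed letters on both strands. TGACGTCA, the cAMP response element, lay in the windows of 2 members, Mdh2 and Ogdh, and in 1.79% of all 32851 promoter windows. The palindromic motif of NRF1, a regulator of mitochondrial genes, lay in that of 1 member, Etfdh, where its letters are in capitals, and in 0.971% of all windows. Mdh2 encodes mitochondrial malate dehydrogenase (chr5:135778399-135778698, plus strand), Ogdh the first component of oxoglutarate dehydrogenase (chr11:6291347-6291646, plus strand) and Etfdh the ubiquinone oxidoreductase that takes electrons from the flavoprotein (chr3:79628718-79629017, minus strand).
Mdh2: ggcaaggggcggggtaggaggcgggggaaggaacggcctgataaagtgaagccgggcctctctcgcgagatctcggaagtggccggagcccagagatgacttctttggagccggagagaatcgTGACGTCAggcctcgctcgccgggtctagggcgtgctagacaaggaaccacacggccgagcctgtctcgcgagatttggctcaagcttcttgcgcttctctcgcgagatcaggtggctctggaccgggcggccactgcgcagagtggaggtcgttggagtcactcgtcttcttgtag
Ogdh: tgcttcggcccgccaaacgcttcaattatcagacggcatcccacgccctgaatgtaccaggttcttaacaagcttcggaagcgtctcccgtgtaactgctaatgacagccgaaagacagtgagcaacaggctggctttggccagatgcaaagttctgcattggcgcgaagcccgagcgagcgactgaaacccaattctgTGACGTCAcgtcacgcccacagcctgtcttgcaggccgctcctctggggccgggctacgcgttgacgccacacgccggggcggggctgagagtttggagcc
Etfdh: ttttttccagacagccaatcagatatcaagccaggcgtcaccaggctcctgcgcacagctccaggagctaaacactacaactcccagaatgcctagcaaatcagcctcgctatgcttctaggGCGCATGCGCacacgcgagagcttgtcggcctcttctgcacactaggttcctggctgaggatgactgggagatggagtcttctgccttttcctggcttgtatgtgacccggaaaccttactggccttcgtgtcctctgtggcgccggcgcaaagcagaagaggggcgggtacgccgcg

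The motif began at position -127 in Mdh2, -51 in Ogdh and -128 in Etfdh, counting the gene start as 0. The estrogen-related receptor motif TCAAGGTCA lay in the window of 0 members and in 0.423% of all windows. The perfect direct repeat read by PPARs, with 1 base of any kind between the repeats, lay in 0 members and 0.0396% of all windows. A match is only a run of letters, and Ogdh has several annotated starts, of which some windows hold no match.

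The deposited values are a scaled signal per gene, and the number of reads behind them is unknown. They were rescaled between libraries, and values per library below are this rescaled signal. Library totals ran from 36.6 to 79.8 M units (M, units in 1e6), with the controls at 67.8 to 79.8 M. Scx itself stood at 1.66 to 17.2 in the 8 Scx- libraries, 2096 to 8044 in the 8 Scx+ stimulated libraries and 319 to 593 in the controls. As a check of the tissue label, the summed share of 13 tendon fibroblast genes was 4.44% to 7.11% in Scx- at day 7, 6.69% to 10.4% in Scx+ at day 7, 1.48% to 8.81% in Scx- at day 14, 6.97% to 10.5% in Scx+ at day 14. In the control it was lower, 0.389% to 1.18%. Skeletal muscle fibre genes were abundant and uneven: 22 of them took 3.29 ± 2.53% in Scx- at day 7, 1.17 ± 1.19% in Scx+ at day 7, 11.3 ± 7.93% in Scx- at day 14, 4.29 ± 3.76% in Scx+ at day 14 (SD, n = 4 each) and 27.0 ± 2.71% in the control (n = 3). A pair of libraries stood apart from their group in this: Scx- day 14 replicates 1 and 2 held 16.8% and 19.4% muscle signal, against 4.58% and 4.35% in replicates 3 and 4. Some counts and medians that rest on that pair are given below with and without it. Fold changes of single genes in Scx- at day 14 include the pair unless stated otherwise. Runs without the pair leave replicates 3 and 4 as the whole group. Replicate 2 was the group's highest library for 32 of the 32 genes, and replicates 3 and 4 were lowest for 19 and 12. Lower values in those runs were therefore largely set in advance. In bulk tissue, fewer cells of a type and less RNA per cell cannot be told apart.

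Genes of fatty acid oxidation and the citrate cycle were lower in every stimulated group than in the control. Of the 32 genes, 30 fell in Scx- at day 7, 29 in Scx- at day 14, 31 in Scx+ at day 7 and 32 in Scx+ at day 14 (limma, Benjamini-Hochberg adjusted p under 0.05 over all 16625 tested genes), and none rose. Among all genes tested, 25.9% were called lower in Scx- at day 7, 18.3% in Scx- at day 14, 27.5% in Scx+ at day 7 and 25% in Scx+ at day 14. Called higher were 32.3% in Scx- at day 7, 25.5% in Scx- at day 14, 33.8% in Scx+ at day 7 and 30.9% in Scx+ at day 14. The median log2 fold change of the 32 genes was -1.80 in Scx- at day 7, -1.45 in Scx- at day 14, -2.07 in Scx+ at day 7 and -1.92 in Scx+ at day 14, while that of all tested genes lay between 0.12 and 0.18. All 32 fold changes were negative in each comparison. Of all genes called, 55.5% were higher in Scx- at day 7, 58.2% in Scx- at day 14, 55.1% in Scx+ at day 7 and 55.3% in Scx+ at day 14. With library totals in place of the rescaling the share of higher calls was 81.9% in Scx- at day 7, 84.1% in Scx- at day 14, 78.6% in Scx+ at day 7 and 79.9% in Scx+ at day 14, and the median of all genes shifted up by 0.456 to 0.673. Of the 32 genes, 28 were then lower in Scx- at day 7, 26 in Scx- at day 14, 30 in Scx+ at day 7 and 29 in Scx+ at day 14. Among all genes, 10933 were then called in Scx- at day 7 (8959 higher) and 8568 in Scx- at day 14 (7209 higher). In Scx+ they were 11420 at day 7 (8971 higher) and 10537 at day 14 (8424 higher). On the deposited scale 7911 of all genes were called in Scx- at day 14, with 2783 of them, or 35.2%, higher. The median of all genes shifted there by -0.327, and 31 of the 32 genes were lower. Without the 2 muscle-rich libraries 32 of the 32 genes were lower in Scx- at day 14, with a median of -1.92. The share of all tested genes called lower in that run was not computed. All stimulated libraries lay below all control libraries for 30 genes in Scx- at day 7, 26 in Scx- at day 14 and 32 in Scx+ at each day, where 27.3% (Scx- day 7), 17.4% (Scx- day 14), 28.9% (Scx+ day 7) and 25% (Scx+ day 14) of all tested genes lay lower without overlap. The authors' deposited table has 30 of the genes lower in Scx- at day 7, 27 in Scx- at day 14, 32 in Scx+ at day 7 and 32 in Scx+ at day 14 at an adjusted p under 0.05. Of all genes listed there, 26.1% were lower in Scx- at day 7, 13.8% in Scx- at day 14, 29.1% in Scx+ at day 7 and 23.3% in Scx+ at day 14.

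**Figure D1:**
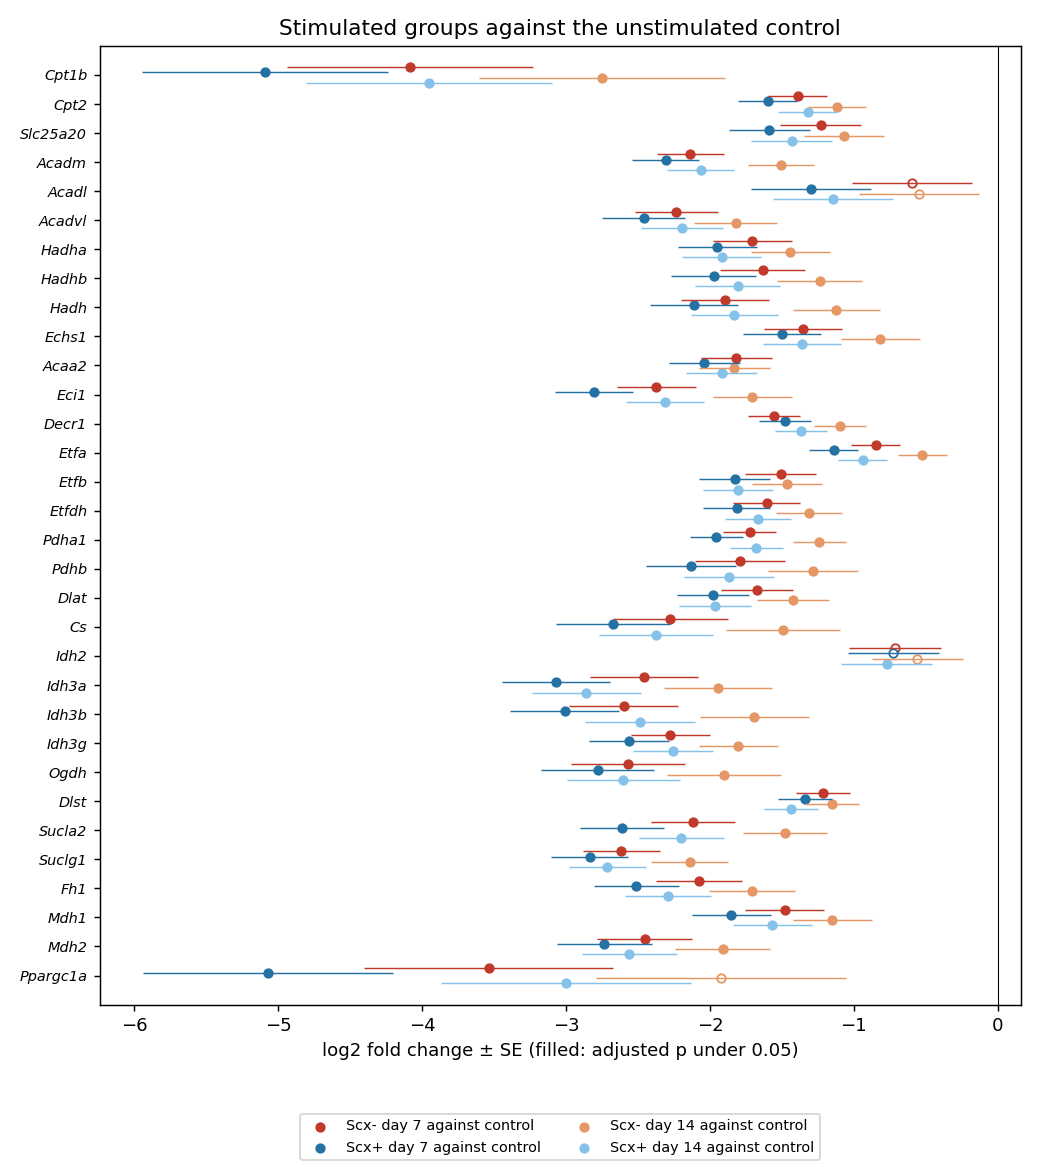
Log2 fold change (x axis) of each of the 32 genes (y axis) in Scx- and Scx+ at day 7 and day 14 against the control; bars are the SE of the fit, and filled points have an adjusted p under 0.05. Every point lies left of 0, Cpt1b and Ppargc1a lie farthest out at day 7, and Acadl, Etfa and Idh2 lie nearest to 0.

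The muscle marker list also had a negative median in each of the 4 comparisons, though few of its genes were called lower in Scx- at day 14. Its 22 genes had a median log2 fold change of -3.74 in Scx- at day 7 (12 lower, 3 higher), -1.85 in Scx- at day 14 (1 lower, 4 higher), -6.11 in Scx+ at day 7 (16 lower, 3 higher) and -3.73 in Scx+ at day 14 (13 lower, 3 higher). The higher ones, chosen here after their values were seen, were the slow troponin genes Tnnt1, Tnni1 and Tnnc1 and, in Scx- at day 14, the slow myosin gene Myh7. Myh4, the fast myosin gene, fell to 181685 ± 149393 in Scx- at day 14 (SD, n = 4), against 5182260 ± 1549000 in the control (n = 3). With the mean log2 signal of the muscle list as a covariate, 30 of the 32 genes were lower in each of the 4 comparisons. The share of all tested genes called lower in that fit was not computed, so this count has nothing to be set against. Medians of the 32 genes were then -1.56 in Scx- at day 7, -1.41 in Scx- at day 14, -1.54 in Scx+ at day 7 and -1.62 in Scx+ at day 14. That covariate weighs all muscle genes alike, unlike the summed share. It averaged 16.2 in Scx- at day 14 and 16.5 in the control. In Scx- day 14 replicates 1 and 2 it was 17.4 and 17.5, above the controls (16.2 to 16.7). The fit therefore cannot show how the fall depends on the summed muscle share. Adipocyte genes were low in all stimulated groups as well: 9 of 10 tested fell in each comparison, and the list's summed share was 0.0340% in Scx- at day 7, 0.0168% in Scx+ at day 7, 0.0627% in Scx- at day 14, 0.0346% in Scx+ at day 14 and 0.268% in the control. Adipoq, which encodes adiponectin, stood at 66.9 to 3099 in stimulated libraries and at 9649 to 14598 in controls. Ucp1, the defining gene of brown fat, was listed at 0 in all 3 controls and reached at most 18.9 elsewhere. Macrophage genes moved the other way. Of 12 tested, 11 rose in Scx- at day 7, 7 in Scx- at day 14, 11 in Scx+ at day 7 and 8 in Scx+ at day 14, and none fell. Their summed share was 0.538 ± 0.223% in Scx- at day 7, 0.354 ± 0.0624% in Scx+ at day 7, 0.227 ± 0.0824% in Scx- at day 14, 0.265 ± 0.0536% in Scx+ at day 14 (SD, n = 4 each) and 0.0708 ± 0.0272% in the control (n = 3). The part of the muscle, adipocyte and macrophage genes in this fall was not tested.

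**Figure D2:**
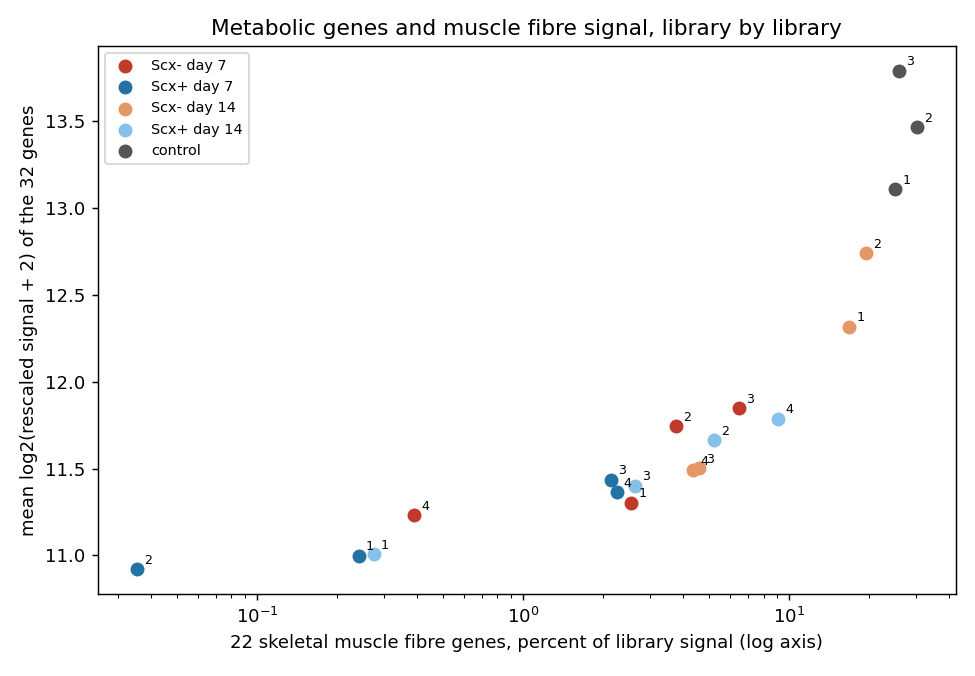
Mean log2(rescaled signal + 2) of the 32 genes (y axis) against the percent of library signal in 22 skeletal muscle fibre genes (x axis, log scale), 1 point per library, numbered by replicate. The 3 controls lie highest, at 13.1 to 13.8 and 25.1% to 30.1% muscle signal, and Scx- day 14 replicates 1 and 2 lie between them and the other 14 stimulated libraries.

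In the carnitine shuttle, Cpt1b, which encodes the muscle form of the outer-membrane carnitine palmitoyltransferase, fell most of all 32 genes when the 4 fold changes were averaged (-3.97). Its signal was 792, 1848, 2352 and 321 in Scx- and 245.5, 288, 1086 and 871 in Scx+ at day 7. Day 14 values were 4875, 6911, 1303 and 1018 in Scx- and 413, 1840, 732 and 2861 in Scx+, against 12713, 19228 and 21700 in the control. The highest stimulated library was Scx- day 14 replicate 2, and no stimulated group overlapped with the control. The log2 fold change was -4.09 ± 0.86 in Scx- at day 7 (adjusted p = 0.00082), -5.09 ± 0.86 in Scx+ at day 7 (adjusted p = 0.000115), -2.75 ± 0.86 in Scx- at day 14 (adjusted p = 0.0168) and -3.95 ± 0.86 in Scx+ at day 14 (SE; adjusted p = 0.00117, limma). The Scx- day 14 call was lost without control replicate 3 (adjusted p = 0.0536) and without Scx- day 14 replicate 3 (0.052) or 4 (0.0565). Cpt1b (chromosome 15, 89416405 to 89425863, minus strand, GRCm38) shares 2744 exonic bases on the same strand with the annotated gene Gm44502, so the signal of the pair cannot be told apart.

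The other shuttle genes fell less. Cpt2, the inner-membrane transferase (chromosome 4), was 1131 to 1605 in Scx- at day 7, 1017 to 1233 in Scx+ at day 7, 1259 to 2341 in Scx- at day 14, 1099 to 1637 in Scx+ at day 14, against 2957 to 4279 in the control. Its log2 fold changes ran from -1.60 in Scx+ at day 7 to -1.12 in Scx- at day 14. Slc25a20, the carrier that exchanges acylcarnitines for carnitine, ran from -1.59 in Scx+ at day 7 to -1.07 in Scx- at day 14. With library totals its Scx- calls were lost, at -0.53 (adjusted p = 0.065, limma) on day 7 and -0.59 (0.052) on day 14.

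**Figure D3:**
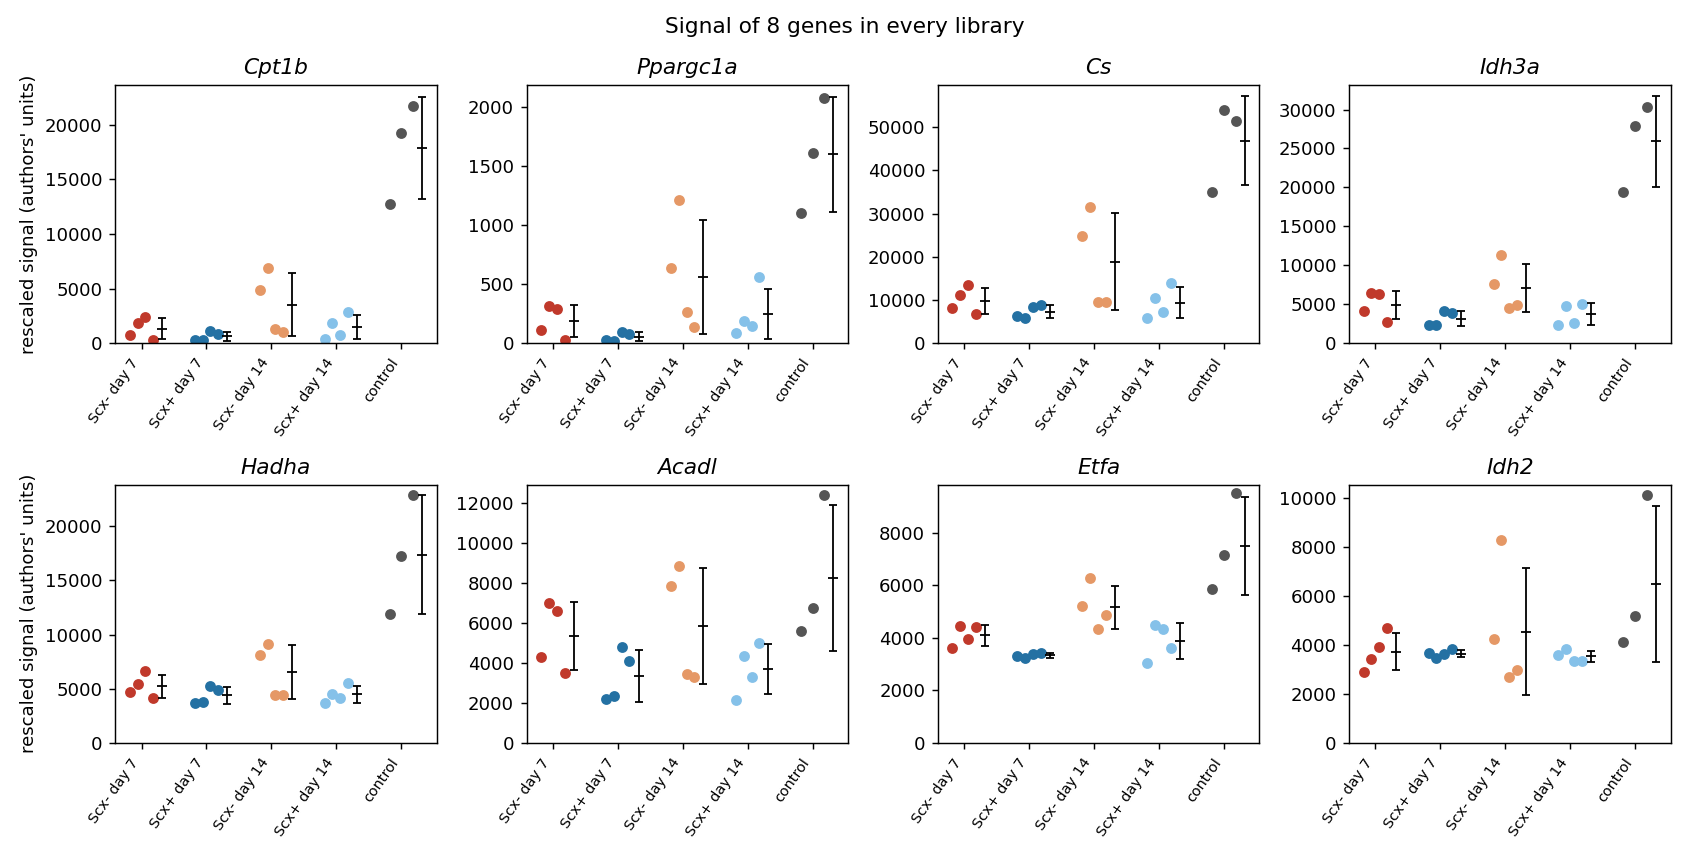
Rescaled signal (y axis, authors' units, each panel with its own scale from 0) of 8 genes in every library by group, with the mean and SD beside the points. Cpt1b, Ppargc1a, Cs, Idh3a and Hadha lie below the controls in all stimulated libraries except 1 library of Ppargc1a, and Acadl, Etfa and Idh2 overlap with them in at least 1 group.

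In beta-oxidation, 9 of 10 genes fell in Scx- at each day and 10 of 10 in Scx+ at each day. Their medians were -1.76 in Scx- at day 7, -1.34 in Scx- at day 14, -2.01 in Scx+ at day 7 and -1.87 in Scx+ at day 14. Hadha was 4694, 5425, 6619 and 4141 in Scx- and 3696, 3752, 5245 and 4875 in Scx+ at day 7. At day 14 it was 8144, 9144, 4407 and 4401 in Scx- and 3685, 4517, 4176 and 5542 in Scx+, against 11899, 17288 and 22873 in the control. All 16 stimulated libraries lay below the controls, and the 2 muscle-rich libraries were the highest of the 16. Hadha had log2 fold changes of -1.70 ± 0.27 in Scx- at day 7, -1.44 ± 0.27 in Scx- at day 14, -1.95 ± 0.27 in Scx+ at day 7 and -1.92 ± 0.27 in Scx+ at day 14 (SE; adjusted p at most 0.00056, limma). Its head-to-head neighbour Hadhb, whose window with the shared capitals is printed above, had log2 fold changes of -1.63 in Scx- at day 7, -1.97 in Scx+ at day 7, -1.24 in Scx- at day 14 and -1.81 in Scx+ at day 14. With all libraries kept, both subunits of the trifunctional protein had their smallest fall in Scx- at day 14 and their largest in Scx+ at day 7. For Hadha the day 14 rank rests on the muscle-rich libraries, at 8144 and 9144. The other Scx- day 14 libraries, at 4407 and 4401, lay within the Scx- day 7 range of 4141 to 6619.

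Among the acyl-CoA dehydrogenases, which open each turn of the cycle, the fall differed by enzyme. Acadm, specific for medium chains, was 2328 to 3039 in Scx- at day 7, 2111 to 2431 in Scx+ at day 7, 2765 to 6155 in Scx- at day 14, 2199 to 3381 in Scx+ at day 14, against 8949 to 14982 in the control. Its log2 fold changes ran from -2.31 in Scx+ at day 7 to -1.51 in Scx- at day 14. Acadvl, for very long chains, ran from -2.46 in Scx+ at day 7 to -1.82 in Scx- at day 14. Acadl, for long chains, was 4299, 6980, 6569 and 3500 in Scx- and 2175, 2332, 4774 and 4070 in Scx+ at day 7. Day 14 values were 7854, 8827, 3429 and 3312 in Scx- and 2132, 4357, 3283 and 4985 in Scx+, against 5606, 6717 and 12378 in the control. Scx- libraries of both days overlapped with the controls, whereas Scx+ libraries did not. Acadl differed by -0.60 ± 0.42 in Scx- at day 7 (adjusted p = 0.228) and -0.55 ± 0.42 in Scx- at day 14 (adjusted p = 0.297), fell by 1.30 ± 0.42 in Scx+ at day 7 (adjusted p = 0.0124) and fell by 1.14 ± 0.42 in Scx+ at day 14 (SE; adjusted p = 0.0277, limma). Both Scx+ calls of Acadl were lost with the muscle covariate (adjusted p = 0.769 at day 7 and 0.0752 at day 14) and without control replicate 3 (0.0785 and 0.144), and without the 2 muscle-rich libraries Acadl passed in Scx- at day 14 (-1.21, adjusted p = 0.0289). The difference between Scx- and Scx+ in Acadl did not pass at either day.

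The remaining beta-oxidation genes fell in all 4 comparisons. Eci1, the isomerase that handles unsaturated chains, ran from -2.81 in Scx+ at day 7 to -1.70 in Scx- at day 14. Acaa2, the thiolase that cleaves off acetyl-CoA, ran from -2.04 in Scx+ at day 7 to -1.82 in Scx- at day 7. Hadh, the short-chain hydroxyacyl-CoA dehydrogenase, ran from -2.11 in Scx+ at day 7 to -1.12 in Scx- at day 14. Its call in Scx- at day 14 was lost in a fit on only the groups compared (adjusted p = 0.0565, limma). Decr1, a reductase for unsaturated chains, ran from -1.55 in Scx- at day 7 to -1.10 in Scx- at day 14. Echs1, the short-chain hydratase, ran from -1.50 in Scx+ at day 7 to -0.81 in Scx- at day 14, and its call in Scx- at day 14 was lost without control replicate 3 (adjusted p = 0.106) or Scx- day 14 replicate 3 (0.0789) or 4 (0.0678).

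Of the electron transfer flavoprotein genes, Etfa (alpha subunit) changed least. It was 3611, 4448, 3937 and 4398 in Scx- and 3316, 3223, 3394 and 3410 in Scx+ at day 7. At day 14 it was 5197, 6260, 4320 and 4850 in Scx- and 3059, 4505, 4332 and 3619 in Scx+, against 5838, 7147 and 9502 in the control. Among stimulated libraries, Scx- day 14 replicate 2 alone reached the lowest control. Etfa had log2 fold changes of -0.85 ± 0.17 in Scx- at day 7, -1.14 ± 0.17 in Scx+ at day 7, -0.52 ± 0.17 in Scx- at day 14 and -0.94 ± 0.17 in Scx+ at day 14 (SE; adjusted p at most 0.0198, limma). The day 14 Scx- call was lost without control replicate 3 (adjusted p = 0.128) or Scx- day 14 replicate 3 (0.0615). Its partner Etfb (beta subunit) ran from -1.83 in Scx+ at day 7 to -1.46 in Scx- at day 14, but shares 617 exonic bases on the same strand with the annotated gene Gm45233, so the signal of the pair cannot be told apart. Etfdh, whose NRF1 motif is shown above, ran from -1.81 in Scx+ at day 7 to -1.31 in Scx- at day 14.

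The 3 pyruvate dehydrogenase genes fell in all 4 comparisons, with medians of -1.72 in Scx- at day 7, -1.28 in Scx- at day 14, -1.98 in Scx+ at day 7 and -1.87 in Scx+ at day 14. Pdha1, the X-linked gene of the alpha subunit of the first component, was 7394, 9099, 10082 and 7412 in Scx- and 6709, 6665, 7919 and 7477 in Scx+ at day 7. Day 14 values were 13015, 14669, 9959 and 10070 in Scx- and 7212, 10457, 8205 and 9216 in Scx+, against 22004, 30433 and 32115 in the control. All stimulated libraries lay below the controls, and Pdha1 had log2 fold changes of -1.72 ± 0.18 in Scx- at day 7, -1.95 ± 0.18 in Scx+ at day 7, -1.24 ± 0.18 in Scx- at day 14 and -1.68 ± 0.18 in Scx+ at day 14 (SE; adjusted p at most 7.56e-05, limma). Pdhb, its partner in that component, ran from -2.13 in Scx+ at day 7 to -1.28 in Scx- at day 14, and Dlat, the acetyl transferase of the complex, from -1.98 in Scx+ at day 7 to -1.42 in Scx- at day 14. Exons of Pdha1 overlap by 603 bases with Map3k15 on the opposite strand, and those of Acadvl by 1151 bases with Dvl2. The labels do not say whether counting used the strand, so these genes' signals cannot be told apart there.

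The citrate cycle genes had medians of -2.27 in Scx- at day 7, -1.70 in Scx- at day 14, -2.64 in Scx+ at day 7 and -2.33 in Scx+ at day 14. Of the 12 genes, 11 fell in Scx- at each day and in Scx+ at day 7, and 12 fell in Scx+ at day 14. Citrate synthase (Cs, chromosome 10), which joins acetyl-CoA to oxaloacetate, was 8147, 11193, 13394 and 6709 in Scx- and 6284, 5857, 8439 and 8742 in Scx+ at day 7. At day 14 it was 24899, 31620, 9523 and 9540 in Scx- and 5890, 10445, 7268 and 13815 in Scx+, against 34999, 54041 and 51517 in the control. In Scx- at day 14 the group was split, with the 2 muscle-rich libraries at 53.1% and 67.5% of the control mean and the other 2 at 20.3% and 20.4%. Cs had log2 fold changes of -2.27 ± 0.40 in Scx- at day 7, -2.67 ± 0.40 in Scx+ at day 7, -1.49 ± 0.40 in Scx- at day 14 and -2.38 ± 0.40 in Scx+ at day 14 (SE; adjusted p at most 0.00606, limma).

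The 3 genes of the NAD-dependent isocitrate dehydrogenase, a rate-controlling enzyme of the cycle, all fell in all 4 comparisons. Idh3a (catalytic alpha subunit) was 4129, 6457, 6335 and 2719 in Scx- and 2303, 2275, 4123 and 3916 in Scx+ at day 7. Day 14 values were 7663, 11284, 4523 and 4895 in Scx- and 2396, 4773, 2624 and 5036 in Scx+, against 19370, 27947 and 30382 in the control. The highest stimulated library was again Scx- day 14 replicate 2, and it did not reach the controls. Idh3a had log2 fold changes of -2.46 ± 0.38 in Scx- at day 7, -3.07 ± 0.38 in Scx+ at day 7, -1.94 ± 0.38 in Scx- at day 14 and -2.86 ± 0.38 in Scx+ at day 14 (SE; adjusted p at most 0.000645, limma). Idh3b ran from -3.01 in Scx+ at day 7 to -1.69 in Scx- at day 14 and Idh3g from -2.56 in Scx+ at day 7 to -1.80 in Scx- at day 14.

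Idh2, the NADP-dependent isocitrate dehydrogenase of mitochondria, passed in 1 of the 4 comparisons. Its signal was 2888, 3423, 3918 and 4673 in Scx- and 3647, 3455, 3640 and 3813 in Scx+ at day 7. At day 14 it was 4247, 8285, 2669 and 2953 in Scx- and 3588, 3839, 3338 and 3335 in Scx+, against 4133, 5188 and 10120 in the control. The controls spread widely, and Scx- libraries of both days overlapped with them. Idh2 differed by -0.71 ± 0.32 in Scx- at day 7 (adjusted p = 0.0634), -0.56 ± 0.32 in Scx- at day 14 (adjusted p = 0.163) and -0.72 ± 0.32 in Scx+ at day 7 (adjusted p = 0.0568), and fell by 0.77 ± 0.32 in Scx+ at day 14 (SE; adjusted p = 0.0473, limma). That last call was lost without any one of control replicates 2 and 3 or the 4 Scx+ day 14 libraries (adjusted p = 0.0579 to 0.294). It was also lost with the replicate block (adjusted p = 0.0745), the muscle covariate (0.112), no filter on low values (0.0607) and library totals (0.625). Idh2 passed in Scx- at day 14 without the 2 muscle-rich libraries (adjusted p = 0.00308), and at day 7 without control replicate 1 in both Scx- (0.0219) and Scx+ (0.0196). On the deposited scale it passed in Scx- at day 7 (adjusted p = 0.04, limma) and day 14 (0.0267). The authors' deposited table calls it lower in Scx+ at day 7 (adjusted p = 0.0117) and day 14 (0.018). In Scx- that table does not call it, at day 7 (0.0507) or day 14 (0.48).

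The genes of the later steps of the cycle fell in all 4 comparisons. Suclg1, the alpha subunit of succinyl-CoA ligase, was 1926 to 2827 in Scx- at day 7, 1677 to 2282 in Scx+ at day 7, 2186 to 5739 in Scx- at day 14, 1669 to 2614 in Scx+ at day 14, against 12577 to 15624 in the control. Its log2 fold changes ran from -2.84 in Scx+ at day 7 to -2.14 in Scx- at day 14, and those of Sucla2, the beta subunit of the ATP-forming ligase, from -2.61 in Scx+ at day 7 to -1.48 in Scx- at day 14. Ogdh, whose cAMP response element is printed above, ran from -2.78 in Scx+ at day 7 to -1.90 in Scx- at day 14, and Mdh2, with the same motif, from -2.73 in Scx+ at day 7 to -1.91 in Scx- at day 14. Fumarase (Fh1) ran from -2.51 in Scx+ at day 7 to -1.71 in Scx- at day 14, and Mdh1, the cytosolic malate dehydrogenase, from -1.85 in Scx+ at day 7 to -1.15 in Scx- at day 14. Dlst, the transferase that works with Ogdh in 1 complex, ran from -1.44 in Scx+ at day 14 to -1.15 in Scx- at day 14.

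Ppargc1a (chromosome 5, 51454250 to 51567726, minus strand) was 116, 314, 294 and 26.8 in Scx- and 26.7, 18.7, 98.7 and 73.7 in Scx+ at day 7. Day 14 values were 637, 1214, 261 and 134 in Scx- and 84.5, 189, 149 and 561 in Scx+, against 1105, 1616 and 2077 in the control. All other stimulated libraries lay below the controls, and Scx- day 14 replicate 2 lay inside the control range. It fell by 3.54 ± 0.87 in Scx- at day 7 (adjusted p = 0.00229) and fell by 5.07 ± 0.87 in Scx+ at day 7 (SE; adjusted p = 9.95e-05, limma). In Scx+ at day 14 it was 8.01 times lower than in the control (adjusted p = 0.00757, limma). In Scx- at day 14 it differed by -1.92 ± 0.87 (SE; adjusted p = 0.0813). There it passed without the 2 muscle-rich libraries (-3.04, adjusted p = 0.0156), with the muscle covariate (-1.76, 0.00423) and on the authors' deposited scale (-2.26, 0.0407), and the authors' deposited table has it at -1.58 ± 0.637 (adjusted p = 0.0459).

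Genes that surround these pathways were taken from a list of 64, all tested. In Scx- at day 7, 44 fell and 7 rose; in Scx- at day 14, 37 fell and 6 rose; in Scx+ at day 7, 47 fell and 7 rose; and in Scx+ at day 14, 45 fell and 7 rose. Among all tested genes, 25.5% to 33.8% rose in these comparisons, a larger share than in this list. Sdha, the flavoprotein of succinate dehydrogenase, ran from -2.61 in Scx+ at day 7 to -2.02 in Scx- at day 14. Pcx, which carboxylates pyruvate to oxaloacetate, ran from -3.49 in Scx- at day 7 to -2.14 in Scx- at day 14. Perm1, known in muscle as a target of PGC-1 alpha and the estrogen-related receptors, had log2 fold changes of -4.75 ± 0.60 in Scx- at day 7, -5.85 ± 0.60 in Scx+ at day 7, -3.46 ± 0.60 in Scx- at day 14 and -4.68 ± 0.60 in Scx+ at day 14 (SE; adjusted p at most 0.00027, limma). Among the receptor genes, Esrra ran from -1.85 in Scx+ at day 7 to -1.48 in Scx- at day 14 and Ppara from -3.72 in Scx+ at day 7 to -2.12 in Scx- at day 14, with all calls lower. Esrrg fell by 3.63 ± 1.40 in Scx+ at day 7 (adjusted p = 0.0341, limma) and passed in 0 of the other 3 comparisons. The regulators did not all fall. Of the 10 in the list, 5 were called lower in Scx- at day 7, 4 in Scx- at day 14 and 6 in Scx+ at each day. The rest did not pass, and 0 were called higher. Among all tested genes, 18.3% to 27.5% were called lower in these comparisons.

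A few surrounding genes rose. Cpt1a, the liver form of Cpt1b, rose by 1.10 ± 0.23 in Scx- at day 7 (adjusted p = 0.000548), 1.06 ± 0.23 in Scx+ at day 7 (adjusted p = 0.00067) and 0.69 ± 0.23 in Scx+ at day 14 (adjusted p = 0.0156), and differed by 0.36 ± 0.23 in Scx- at day 14 (SE; adjusted p = 0.205, limma). Cpt1c, the brain form, rose by 1.57 in Scx- at day 7, 1.77 in Scx+ at day 7, 1.33 in Scx- at day 14 and 1.91 in Scx+ at day 14. Pdk3, a kinase that inactivates pyruvate dehydrogenase, rose by 2.81 ± 0.26 in Scx- at day 7, 2.85 ± 0.26 in Scx+ at day 7, 2.24 ± 0.26 in Scx- at day 14 and 2.45 ± 0.26 in Scx+ at day 14 (SE). Of its relatives, Pdk2 ran from -4.44 in Scx+ at day 7 to -2.06 in Scx- at day 14. Pdk4 fell, with log2 fold changes of -3.73 in Scx- at day 7, -5.31 in Scx+ at day 7 and -3.60 in Scx+ at day 14, and differed by -1.69 ± 1.44 (adjusted p = 0.358, limma) in Scx- at day 14. Idh1, the cytosolic counterpart of Idh2, rose by 0.85 in Scx- at day 7, 0.95 in Scx+ at day 7, 0.69 in Scx- at day 14 and 1.10 in Scx+ at day 14. The other genes that rose, named after their values were seen, did so in all 4 comparisons. Me2, an NAD-dependent mitochondrial malic enzyme, ran from 1.05 in Scx- at day 14 to 1.63 in Scx- at day 7. Decr2, the peroxisomal counterpart of Decr1, ran from 1.04 in Scx- at day 14 to 1.44 in Scx+ at day 14, and Acsl5, an acyl-CoA synthetase, from 0.62 in Scx- at day 14 to 1.22 in Scx- at day 7.

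Per kilobase of exon, the mean ratio between paired forms differed from the control, though not in every library for every pair. The ratio of Cpt1b to Cpt1a signal per kilobase was 0.559, 1.04, 2.51 and 0.151 in Scx- and 0.178, 0.242, 0.644 and 0.543 in Scx+ at day 7. At day 14 it was 5.07, 9.99, 1.31 and 1.05 in Scx- and 0.392, 1.59, 0.74 and 2.14 in Scx+, against 18.6, 33.0 and 25.7 in the control. Every stimulated library thus lay below every control, and all 4 Scx+ day 7 libraries had more Cpt1a than Cpt1b. The ratio of Idh2 to Idh1 averaged 0.738 ± 0.143 in Scx- at day 7, 0.674 ± 0.0592 in Scx+ at day 7, 1.10 ± 0.770 in Scx- at day 14, 0.598 ± 0.149 in Scx+ at day 14 (SD, n = 4 each) and 2.26 ± 0.888 in the control (n = 3). That of Pdk4 to Pdk3 averaged 1.17 ± 0.877 in Scx- at day 7, 0.582 ± 0.576 in Scx+ at day 7, 15.5 ± 16.8 in Scx- at day 14, 3.74 ± 5.46 in Scx+ at day 14 (SD, n = 4 each) and 91.0 ± 38.3 in the control (n = 3). The Scx- day 14 value was split, with 33.8 and 25.8 in the muscle-rich libraries and 1.89 and 0.558 in the other pair. That of Mdh2 to Mdh1, both among the 32 genes, averaged 0.844 ± 0.0925 in Scx- at day 7, 0.894 ± 0.0223 in Scx+ at day 7, 0.984 ± 0.187 in Scx- at day 14, 0.841 ± 0.186 in Scx+ at day 14 (SD, n = 4 each) and 1.68 ± 0.401 in the control (n = 3). In Scx- day 14 replicate 2 the Idh2 to Idh1 ratio was 2.13, inside the control range of 1.60 to 3.27. There the Mdh2 to Mdh1 ratio was 1.19, near the lowest control at 1.22. The ratio of Me2 to Me1 was higher than in the control. It averaged 0.452 in Scx- and 0.320 in Scx+ at day 7, and 0.191 in Scx- and 0.233 in Scx+ at day 14, against 0.0204 in the control. These ratios were described without a test.

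**Figure D4:**
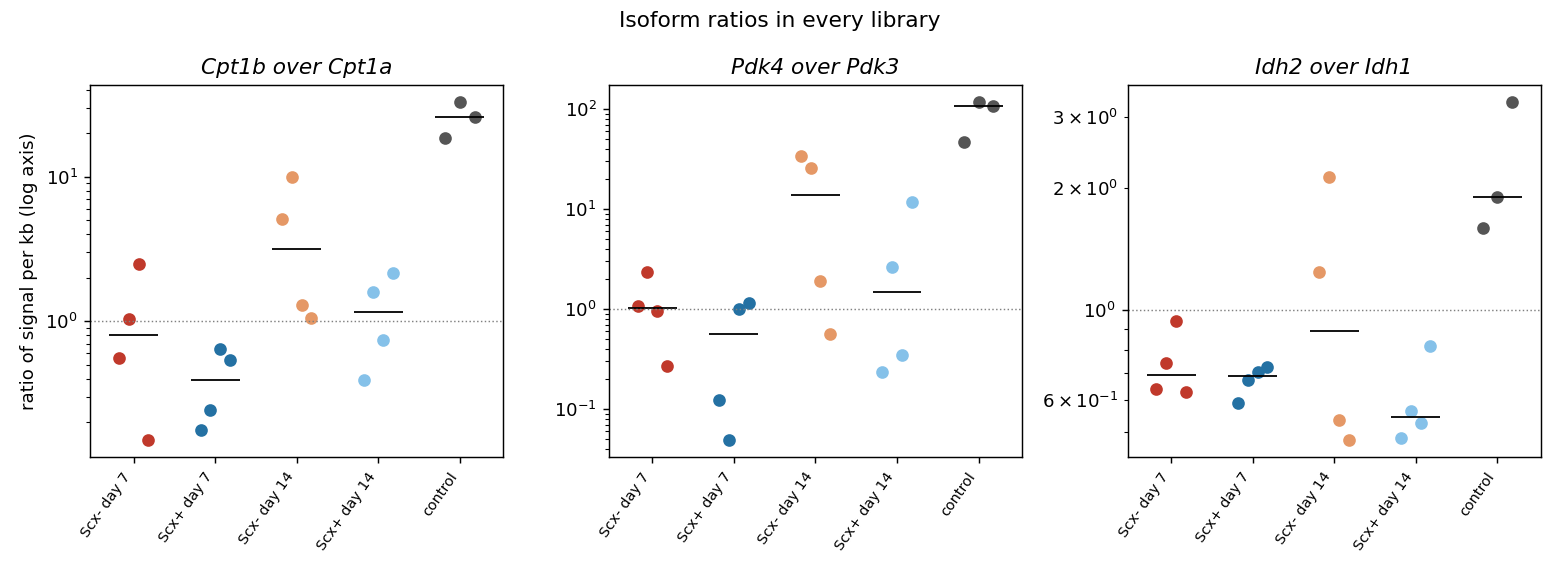
Ratio of signal per kilobase of exon (y axis, log scale) of Cpt1b to Cpt1a, Pdk4 to Pdk3 and Idh2 to Idh1 in every library by group; horizontal bars are group medians and the dotted line marks equal signal. For Cpt1b and Cpt1a the control median is 25.7, and the stimulated medians run from 0.392 in Scx+ at day 7 to 3.19 in Scx- at day 14.

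Between genotypes, none of the 32 genes differed past the threshold at either day. At day 7, 0 of 32 were called in Scx- against Scx+ (limma, with 0.77% of all tested genes called). An unadjusted p under 0.05 was met by 0 of them and by 1207 of all 16625 tested genes. The authors' deposited table calls 0 of them and 4.73% of all its genes. The median was 0.29, beside 0.02 for all tested genes, and 31 of 32 fold changes were positive, from -0.08 for Decr1 to 1.53 ± 0.80 for Ppargc1a (adjusted p = 0.767). Eci1 and Etfa had all 4 Scx- libraries above all 4 Scx+ libraries, 2 of 32 genes, where 3.71% of all tested genes lay higher without overlap. Eci1 was 690, 913, 1010 and 795 in Scx- and 579, 601, 670 and 650 in Scx+ (log2 fold change 0.43 ± 0.25; adjusted p = 0.783, limma). At day 14, 0 of 32 were called (0.517% of all tested genes). An unadjusted p under 0.05 was met by 14 of the 32 and by 2429 of all 16625 tested genes. The authors' deposited table calls 0 of them and 1.11% of all its genes. The median was 0.55, beside 0.02 for all tested genes, and all 32 were positive, from 0.09 for Acaa2 to 1.20 ± 0.79 for Cpt1b (adjusted p = 0.474). On the deposited scale the share of higher calls among all genes at day 14 was 3.73%, against 20.9% after rescaling, and the median of the 32 genes was 0.31.

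The citrate cycle genes held the largest day 14 values that met an unadjusted p under 0.05. Idh3a differed by 0.92 ± 0.35 (SE; adjusted p = 0.272, limma), with means of 7091 ± 3127 in Scx- libraries and 3707 ± 1389 in those of Scx+ (SD, n = 4 each). Cs differed by 0.88 ± 0.37 (SE; adjusted p = 0.298, limma), with means of 18896 ± 11155 in Scx- libraries and 9355 ± 3533 in those of Scx+. Decr1 alone had no overlap between the genotypes at day 14, 1 of 32, where 1.87% of all tested genes lay higher without overlap. In the same comparisons the muscle list had a median of 2.16 at day 7 and 1.93 at day 14, with 0 of 22 genes called at each day. The mean log2 signal of the muscle list was also entered as a covariate. With it the median of the 32 genes was -0.03 at day 7 (13 positive) and 0.26 at day 14 (31 positive). Without the 2 muscle-rich libraries the day 14 median was 0.02, with 18 positive and 14 negative and 0 at an unadjusted p under 0.05. That pair included the highest Scx- day 14 library for all 32 genes, so a lower median was largely set in advance. Adipocyte genes had medians of 0.41 at day 7 and 1.36 at day 14, with 0 of 10 called at each day. Macrophage genes had medians of 0.52 at day 7, with 1 of 12 higher, and -0.24 at day 14, with 0 of 12 called. The part of the muscle, adipocyte and macrophage genes in the result was not tested.

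**Figure D5:**
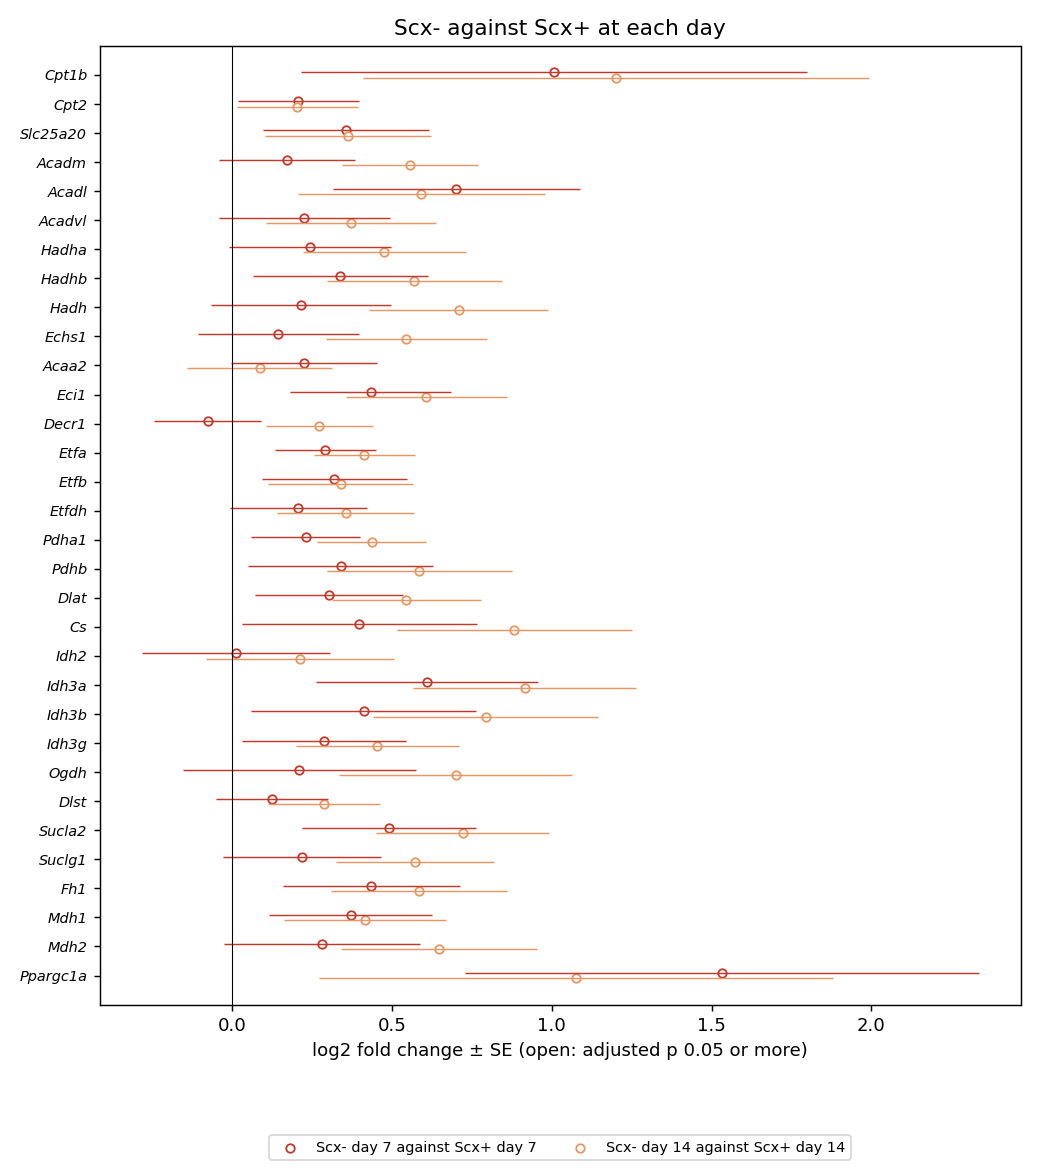
Log2 fold change (x axis) of each of the 32 genes (y axis) in Scx- against Scx+ at day 7 and at day 14; bars are the SE of the fit, and all points are open because none has an adjusted p under 0.05. Apart from Decr1 at day 7, all lie right of 0, with medians of 0.29 and 0.55.

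Between days, 0 of 32 genes were called in either genotype. In Scx-, day 14 against day 7 had a median of 0.47, beside 0.02 for all tested genes, with 31 of 32 positive. Of all tested genes 5.25% were called (limma). An unadjusted p under 0.05 was met by 9 of the 32 and by 3636 of all 16625 tested genes. The authors' deposited table calls 0 of the 32 there and 9.05% of all its genes. Decr1 alone lay higher without overlap, where 4.08% of all tested genes did. In this comparison 26.6% of the calls were higher, against 4.3% on the deposited scale and 8.45% with library totals. The highest single values were Ppargc1a at 1.61 ± 0.80 (adjusted p = 0.25) and Cpt1b at 1.33 ± 0.79 (adjusted p = 0.342). Without the 2 muscle-rich libraries the median was -0.06, with 12 positive and 20 negative. Without Scx- day 14 replicate 4, a library low in muscle signal, 4 genes were called higher: Acadm, Eci1, Hadh and Idh3b. Of the 64 surrounding genes, 2 passed: Mpc2, a subunit of the mitochondrial pyruvate carrier, rose by 0.82 ± 0.18 (adjusted p = 0.0115), and Cpt1a fell by 0.74 ± 0.21 (adjusted p = 0.0498). In Scx+, day 14 against day 7 had a median of 0.21, beside 0.0044 for all tested genes, with 30 of 32 positive. Of all 16625 tested genes 0.0301% were called and 1757 had an unadjusted p under 0.05, as did 1 of the 32 genes. That gene was Ppargc1a, at 246 ± 214 on day 14 and 54.5 ± 38.2 on day 7 (SD, n = 4 each). Its difference was 2.07 ± 0.80 on the log2 scale (SE; adjusted p = 0.348, limma). The authors' deposited table has it at 2.18 ± 0.617 (adjusted p = 0.0146), the 1 gene of the 32 it calls in that comparison, where it calls 4.99% of all its genes. Muscle genes had medians of 2.03 in Scx- and 2.42 in Scx+ between these days, with 0 of 22 called in each. Macrophage genes had medians of -1.31 in Scx-, where 9 of 12 fell, and -0.44 in Scx+, where 0 of 12 were called. The part of the muscle and macrophage genes between days was not tested. With the muscle covariate the median of the 32 genes was 0.16 in Scx- and -0.14 in Scx+.

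The genotype difference at day 14 less that at day 7 was called for 0 of 32 genes (limma, with 0.018% of all tested genes called). An unadjusted p under 0.05 was met by 0 of them and by 721 of all 16625 tested genes. Its median was 0.20, with 28 positive, from -0.45 ± 1.14 for Ppargc1a to 0.49 ± 0.40 for Hadh. Without the 2 muscle-rich libraries the median was -0.29, with 31 negative.

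Within groups, the same libraries tended to be highest or lowest for many of the 32 genes. In Scx- at day 14, replicate 2 was highest for 32 of 32 genes, and it was also the highest of all 16 stimulated libraries for each of them. At the median gene it stood at 55.3% of the control mean, against 43.1% in replicate 1, 26.0% in replicate 3 and 27.0% in replicate 4. In that library 6 genes reached the lowest control value, and in replicate 1 it was 2. In Scx- at day 7, replicate 3 was highest for 22 genes and held 6.44% muscle signal, the most of that group. The rest of that group did not follow muscle signal as closely. Replicate 4, with 0.390%, was lowest for 17 genes but highest for 5, and replicate 1, with 2.55%, was lowest for 14. Replicate 3 of Scx+ at day 7, with 2.14%, was highest for 22 genes, and replicate 4, with 2.24%, for 8. In Scx+ at day 7, replicate 2 was lowest for 24 genes with 0.0353% muscle signal, and in Scx+ at day 14, replicate 1 was lowest for 28 genes with 0.274%. The control libraries were ordered as well, with replicate 1 lowest for 31 genes and replicate 3 highest for 29, with muscle signal of 25.1% in replicate 1, 30.1% in replicate 2 and 25.7% in replicate 3. The 2 muscle-rich libraries did not match the controls in muscle genes either: Acta1, skeletal actin, stood at 65.9% and 83.2% of the control mean in Scx- day 14 replicates 1 and 2, but Myh4 at 3.46% and 7.58%.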

How the data were processed

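The authors deposited 1 table of scaled signal per gene for 19 libraries and 1 table of their own comparisons, with log2 fold changes, standard errors and adjusted p-values for 15951 genes. Total RNA was converted to standard Illumina libraries, per the labels' protocols. FastQC, STAR, DESeq2 and mm10 are named, per the submitters' processing notes, with versions and roles not given in the sources used here. The deposited signal is not whole numbers and the reads behind it are unknown, so no count test was run.

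Libraries were put on 1 scale with median-of-ratios factors (0.838 to 1.09), computed from 13703 genes that no library lists at 0. Genes at 10 or more in at least 3 libraries (16625) were tested as log2(signal + 2) with limma 3.58.1 in R 4.3.3, with trend and robust moderation and all 5 groups in 1 fit. P-values were adjusted by Benjamini-Hochberg over all 16625 genes in each of 9 comparisons, with a threshold of 0.05. Fold changes on this scale understate low genes. Scripts were checked on simulated data. Python 3.11.15, pandas 2.3.3 and matplotlib 3.10.9 made the annotation and figures. Gene positions came from a GRCm38 annotation and promoters from RefSeq (GRCm38.p6).

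The 32 genes and all gene lists were chosen with earlier results of these data known. Genes beyond the 32 were named by a rule on size of change and role, with exceptions stated. Alternatives were other scalings, filters, pseudocounts, a fit without robust moderation, a replicate block, a muscle covariate, fits on only the groups compared and libraries left out. Except for the scalings, the share of all genes called was not computed under these alternatives.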

Additional observations from a re-analysis of the deposited data

Results flagged for a closer look

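In 2 of the 128 combinations of a gene and a stimulated group, 1 library lay far from the other 3 by Dixon's gap test at the 95% level, which chance passes in about 1 in 20 groups. The gap took 0.848 of the group's range for Cpt2 and 0.923 for Hadh. Cpt2, the inner-membrane carnitine transferase, was low in Scx+ day 7 replicate 1, at 1016.84, against 1200.13 to 1232.97 in the other 3 libraries of that group. Hadh, the short-chain hydroxyacyl-CoA dehydrogenase, was low in Scx+ day 14 replicate 1, at 1634.34, against 2752.19 to 2844.85 in the others. Both genes fell against the control in both groups.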

How the results depend on the processing

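Against the control, leaving out each library in turn gave the following counts of lower genes: for Scx- 30 to 31 at day 7 and 26 to 31 at day 14, for Scx+ 30 to 32 at both days. In Scx- at day 14 against day 7 it gave 0 to 4 called genes, the 4 being without Scx- day 14 replicate 4, and in both genotype comparisons, Scx+ at day 14 against day 7 and the difference between days it gave 0 to 0. The cause was not tested. No result named here changed sign past the threshold under any alternative run. Single genes lost their call in 18 cases with 1 library left out and in 17 under other alternatives, and gained one in 8 and 8 cases. With library totals the lost calls were Etfa in Scx- at day 7 (adjusted p = 0.434, limma), Scx- at day 14 (0.828) and Scx+ at day 14 (0.0865), Slc25a20 in Scx- at day 7 (0.065) and day 14 (0.052), Acadl in Scx+ at day 7 (0.158) and day 14 (0.233), Echs1 in Scx- at day 14 (0.238) and Idh2 in Scx+ at day 14 (0.625). In fits on only the groups compared, Echs1 (adjusted p = 0.112, limma), Etfa (0.114) and Hadh (0.0565) lost their Scx- day 14 calls against the control. Idh2 gained one in Scx+ at day 7 (0.0461). The labels give groups the same replicate numbers, and same-numbered libraries deviated together unevenly (r from -0.43 to 0.35, 7 of 28 pairs over 0.1). Replicate 4 had r = 0.35 between days in Scx- and 0.328 in Scx+. Between genotypes it had -0.428 at day 7 and -0.413 at day 14. Libraries with unlike numbers were not compared, so this cannot show whether the numbers mark pairs. With a replicate block 30 genes were lower in Scx- at day 7, 29 in Scx- at day 14, 31 in Scx+ at day 7 and 31 in Scx+ at day 14, and 0 were called elsewhere; the call lost was Idh2 in Scx+ at day 14 (adjusted p = 0.0745). The number of reads is unknown, so precision at low signal could not be judged.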
